A study of Mus musculus with 68 samples.

Results

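The genes described here are 10 transcripts of neutrophil granules and cytosol, among 24059 gene symbols counted in libraries of flow-sorted mouse bone marrow erythroid cells. They are Mpo, Elane, Prtn3 and Ctsg (the 4 early granule genes), Ngp, Camp, Ltf and Lcn2 (the 4 late granule genes), and S100a8 and S100a9. The members were chosen by name on their measured counts: some of these libraries were known to hold high levels in gates named for red cell precursors. Levels across gates are therefore given as a description with no test. The tests between genotypes use the same counts of these chosen genes, and their p-values do not allow for that choice. All 10 were present in both count tables.

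RNA was sequenced from 68 libraries in 2 series. The stage series has the progenitor gates BFU-E (3 libraries) and CFU-E (5 libraries), and 6 gates of maturing cells, from ERY-I (7) by way of ERY-II (4), ERY-III (4), ERY-IV (4) and ERY-V (7) to ERY-VI (4). The source names run from proerythroblast at ERY-I over reticulocyte at ERY-V to red cell at ERY-VI. The knockout series has 3 wild-type (WT) and 3 GS-KO libraries per gate, in BFU-E and CFU-E, then ERY-I-II, then ERY-III-VI and lastly ERY-V-VI, and values for the 5 gates are given in that order. The source name of ERY-III-VI gives polychromatic and orthochromatic cells, without reticulocytes or red cells. The gate is named here as in its label. GS is not spelled out in the labels and is read here as glutamine synthetase, encoded by Glul. The labels give no allele, Cre driver, strain, age, sex or treatment for any group, and do not say whether replicates are separate mice.

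Neutrophils load their granules in waves as they mature in the bone marrow. Promyelocytes transcribe the genes of azurophil granules: Mpo encodes myeloperoxidase, which makes hypochlorous acid, and Elane, Prtn3 and Ctsg encode the serine proteases neutrophil elastase, proteinase 3 and cathepsin G. Myelocytes and metamyelocytes then switch to the genes of specific and gelatinase granules. Ngp encodes neutrophilic granule protein, Camp the precursor of the cathelicidin peptide, Ltf the iron-binding protein lactoferrin and Lcn2 the siderophore-binding lipocalin. S100a8 and S100a9 encode the subunits of calprotectin, an abundant cytosolic calcium- and zinc-binding complex of neutrophils and monocytes. Erythroid precursors are not known for making these proteins.

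Stage libraries held 1630863 to 11472763 counts in all, and knockout libraries 3131142 to 15806844. Of the stage libraries, 12 carried Y-linked transcripts (replicates 1 to 3 of ERY-V, of ERY-I and of both progenitor gates) and 26 carried Xist, and all 30 knockout libraries were Y-positive. This division was read from the counts, not from the labels. The chi-square between pairs of replicates, divided by that of counting noise alone, had a median of 2.06 within the knockout groups (range 1.29 to 6.25), 2.94 within the Y-positive stage groups and 44.8 between Xist-positive libraries of 1 gate. Replicates in the knockout series thus lay close to counting noise, and p-values measure only this spread, which may be technical. Glul ran from 84.2 to 268 counts per 1000000 of the library total (CPM) in WT libraries and from 12.8 to 101 CPM in GS-KO libraries. Its groups did not overlap in any gate, and the narrowest gap was in BFU-E, with 120 to 125 CPM in WT and 96.1 to 101 CPM in GS-KO.

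The loci are spread over 6 chromosomes of GRCm38 (mm10, GENCODE M21). Elane (79886247 to 79888215, plus strand) and Prtn3 (79874476 to 79883174, plus strand) are neighbours on chromosome 10, Mpo lies on chromosome 11 (87793581 to 87804413) and Ctsg on chromosome 14 (56099881 to 56102574). Ngp (110419747 to 110423012), Camp (109847379 to 109849617) and Ltf (111019271 to 111042767) all lie on chromosome 9, Lcn2 lies on chromosome 2 (32384633 to 32388252), and S100a8 (90668978 to 90670035) and S100a9 (90692632 to 90695721) are neighbours on chromosome 3. Counts are per whole gene, so they cover exons and untranslated regions together. Mpo overlaps the antisense gene Gm11505 and Prtn3 overlaps Plppr3 on the other strand, and the strand setting of the counting is not given in the sources used here, so the values of Mpo and Prtn3 may include reads of those genes.

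The sequences just upstream of 2 early and 2 late members are shown, so that the classes can be compared at the start of the gene. They come from the RefSeq promoter table (GRCm38.p6), in which all 10 members had an entry, as the 250 bases before the start, ended where the GENCODE gene begins if that lies further upstream. Capitals mark matches to TTNNGNAA, a core of the sites bound by C/EBP factors, and to GAGGAA, a core bound by PU.1, each on either strand.
Elane (chr10:79886062-79886246, plus strand): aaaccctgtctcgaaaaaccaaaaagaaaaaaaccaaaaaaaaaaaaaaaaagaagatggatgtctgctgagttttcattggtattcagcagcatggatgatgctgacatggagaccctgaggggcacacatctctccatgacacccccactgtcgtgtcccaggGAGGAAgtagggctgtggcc
Ctsg (chr14:56102575-56102824, minus strand): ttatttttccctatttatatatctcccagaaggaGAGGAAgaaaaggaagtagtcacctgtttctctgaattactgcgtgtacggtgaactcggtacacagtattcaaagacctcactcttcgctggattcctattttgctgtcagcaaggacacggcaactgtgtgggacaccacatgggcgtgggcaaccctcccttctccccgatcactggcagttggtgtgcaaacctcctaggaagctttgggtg
Ngp (chr9:110419558-110419746, plus strand): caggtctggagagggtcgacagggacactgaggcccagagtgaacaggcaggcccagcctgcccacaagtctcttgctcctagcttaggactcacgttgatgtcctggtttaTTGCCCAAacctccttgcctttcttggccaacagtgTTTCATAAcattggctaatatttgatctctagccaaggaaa
Ltf (chr9:111019042-111019270, plus strand): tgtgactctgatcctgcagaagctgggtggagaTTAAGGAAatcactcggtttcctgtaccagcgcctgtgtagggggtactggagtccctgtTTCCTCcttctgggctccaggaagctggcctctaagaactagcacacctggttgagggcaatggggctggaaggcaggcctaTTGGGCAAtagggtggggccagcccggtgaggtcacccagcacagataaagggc
In Elane the GAGGAA match starts 85 bases before the RefSeq start and in Ctsg 216 bases before it, and neither has a C/EBP match in its 250 bases. Ngp has C/EBP matches at 138, 102 and 11 bases before the start, the last beyond the printed stretch, and no GAGGAA match. Ltf has C/EBP matches at 217 and 75 bases and a PU.1 match at 157 bases before the start. Over the full 250 bases, C/EBP matches were found in 5 of 10 members (Ngp, Ltf, Lcn2, S100a8 and S100a9) against 36.8% of 32851 windows of the same length, and PU.1 matches in 7 of 10 against 23.3%. Also searched were TGTGGT (RUNX), in 2 of 10 members against 14.0% of windows, and AACNGT (MYB), in 5 of 10 against 22.3%. No matches to different motifs overlapped in the members. The 4 motifs were chosen after the counts had been seen, a match is a run of letters and not a measured site, and no binding was measured in these libraries.

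Levels of the 10 genes were first compared between the progenitor gates of the stage series. In BFU-E the late sum was 24.3, 26.2 and 28.5 CPM, the early sum 9.41, 6.66 and 6.18 CPM, and the S100 sum 14.8 to 19.4 CPM. All 3 BFU-E libraries therefore held more late than early transcript. In CFU-E replicates 1 to 3 the late sum was 12.3, 11.6 and 11.8 CPM and the early sum 8.84, 10.3 and 6.35 CPM. The other two CFU-E libraries held 0 and 1.20 CPM of late transcript, with 5.78 and 2.80 CPM of early transcript. Replicate 4 had 30 early counts, nearly all from Mpo at 5.58 CPM, and 0 late counts, which allows up to 0.578 CPM (3 counts). Mpo is also transcribed in early myeloid progenitors, before granulocytes form.

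In CPM of library totals, the 10 genes reached their highest stage-series levels in ERY-I, and only in some of its libraries. TMM scaling factors differed widely between gates, at 2.96 in ERY-I replicate 1 and 0.608 in ERY-V replicate 5. Which gate is highest therefore depends on scaling. In replicates 1, 2 and 3 the late sum was 7530.6, 7652.0 and 7556.8 CPM, the early sum 1393.6, 1432.0 and 1371.1 CPM, and the S100 sum 4843.6, 4843.7 and 4576.4 CPM. Together the 10 took 1.35 to 1.39% of all counts in these libraries. In replicates 4, 5, 6 and 7 the late sum was 7.03, 437, 8.12 and 0.204 CPM and the early sum 29.9, 261, 0 and 0 CPM. The 3 Y-positive libraries lay above all 4 Xist-positive ones, and the Xist-positive ones themselves differed by far more than any 2 of the Y-positive ones.

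Ngp, the leading member by counts in the Y-positive ERY-I libraries, stood at 3434.6, 3421.8 and 3441.2 CPM there and at 3.08, 215, 3.31 and 0.204 CPM in replicates 4 to 7. Mpo stood at 1118.3, 1128.7 and 1092.4 CPM in the first set and at 25.5, 208, 0 and 0 CPM in the second. Mpo and Ngp thus did not fall together from library to library: replicate 4 had more Mpo than Ngp, and replicate 6 had Ngp and no Mpo count. Its early sum of 0 allows up to 0.451 CPM.

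From ERY-II to ERY-IV 1 library of each gate carried most of the signal. In ERY-II the late sum was 3.16, 847, 11.7 and 0.789 CPM in replicates 1 to 4, and the early sum 0.789, 119, 0.156 and 0 CPM. In ERY-III the late sum was 5.62, 508, 14.7 and 0.440 CPM and the early sum 1.12, 45.3, 0 and 0.440 CPM. In ERY-IV the late sum was 3.19, 67.3, 0.502 and 0.696 CPM and the early sum 9.08, 5.85, 0 and 0 CPM. Replicate 2 was highest for the late sum in all 3 of these gates, while in ERY-IV replicate 1 was the highest for the early sum, through Mpo at 8.57 CPM.

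In ERY-V the late sum was 1679.2, 1784.1 and 1697.2 CPM in replicates 1 to 3 and 6.19, 1510.2, 60.0 and 0 CPM in replicates 4 to 7. The early sum was 193, 158 and 151 CPM, and then 2.98, 176, 0 and 0 CPM. In ERY-VI the late sum was 231, 420, 0.560 and 3.68 CPM and the early sum 0.883, 11.8, 0.560 and 0 CPM. Both high ERY-VI libraries had Ngp (118 and 220 CPM) and S100a9 (168 and 236 CPM) with hardly any Mpo (0.883 and 0 CPM). The early sum of ERY-VI replicate 2 was nearly all Ctsg, at 11.4 CPM with Elane at 0.

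Among Xist-positive libraries, numbered in order within a gate, the second carried the most of the 10 genes in every gate from ERY-I to ERY-VI, and the first did in CFU-E, where only 2 such libraries exist. The sums over all 10 in these second libraries were 1273.0, 2082.2, 1184.9, 186, 3401.4 and 821 CPM from ERY-I to ERY-VI. The fourth libraries held 0.409, 2.11, 0.880, 1.86, 1.01 and 17.2 CPM. The labels do not link libraries across gates, and the grouping by position was made after the values were seen. Within a gate the highest library exceeded the lowest in the sum over the 10 genes by 989-fold in ERY-II, by 1346.7-fold in ERY-III and by 100-fold in ERY-IV, and the lowest libraries of the other ERY gates held no more than 2 counts. The late sum averaged 3313.1 ± 3994.2 CPM in ERY-I (SD, n = 7), 216 ± 421 in the next gate, ERY-II (n = 4), 132 ± 251 then in ERY-III (n = 4), 17.9 ± 32.9 then in ERY-IV (n = 4), 962 ± 884 in ERY-V (n = 7) and 164 ± 202 in ERY-VI (n = 4). The values of each ERY gate overlapped those of the next, so their order is not given. In bulk samples fewer neutrophil-lineage cells and less RNA per cell cannot be told apart.

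**Figure D1:**
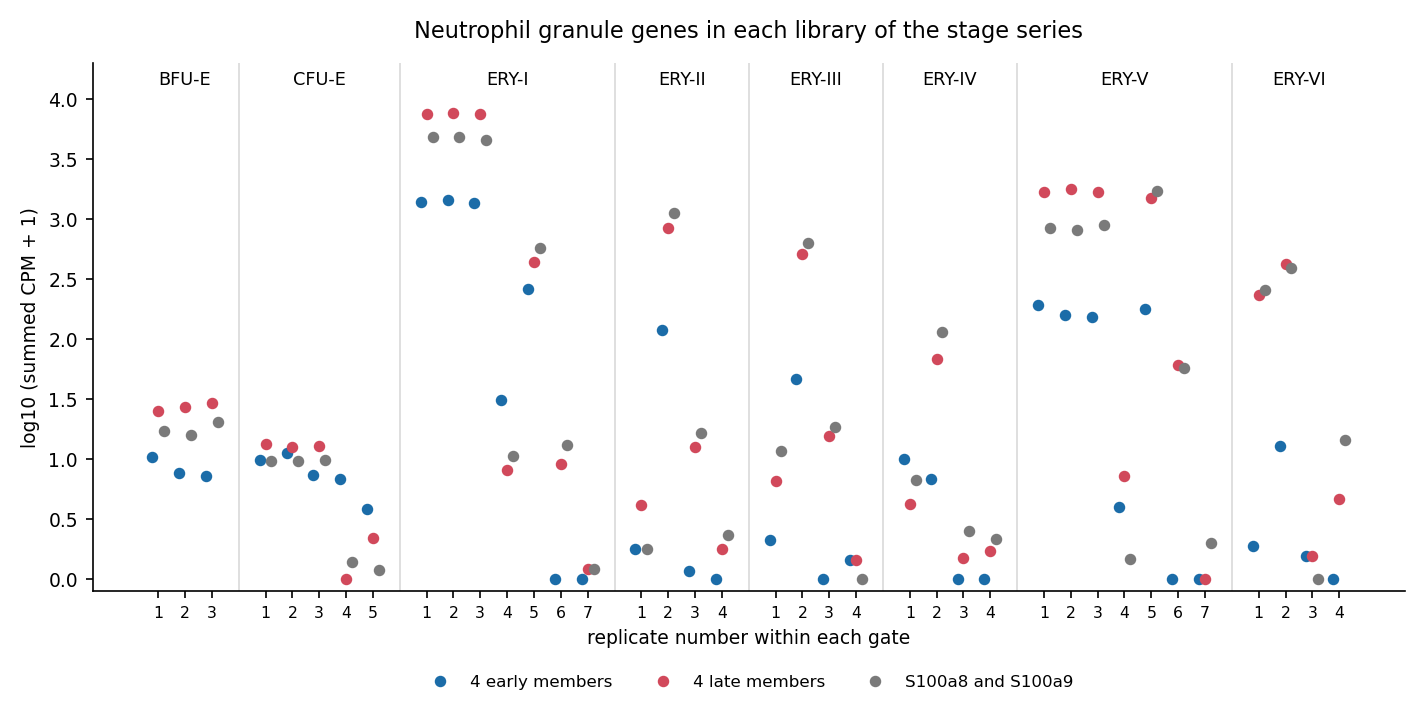
Summed CPM of the 4 early members (blue), the 4 late members (red) and S100a8 with S100a9 (grey) in each of the 38 stage libraries, on a log10 (CPM + 1) axis, by gate and replicate number. ERY-I and ERY-V replicates 1 to 3 are high together, and replicate 2 stands out in ERY-II, ERY-III and ERY-IV.

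The balance of late to early members was then taken within each library, as the log2 ratio of summed counts with 1 added to each sum, where both sums held at least 20 counts together. It does not depend on library scaling. The ratio was 1.36, 1.95 and 2.18 in BFU-E and 0.475, 0.168, 0.888, -4.95 and -1.10 in CFU-E. It was 2.43, 2.42 and 2.46 in ERY-I replicates 1 to 3, and 3.12, 3.49 and 3.48 in ERY-V replicates 1 to 3. In the second Xist-positive libraries the same ratio on a linear scale was 1.68 in ERY-I, 7.08 to 11.2 in the 4 gates that follow and 34.2 in ERY-VI. The lowest of these ratios was in the least mature gate and the highest in the most mature one, with 1 library in each gate.

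Of the third Xist-positive libraries of the 6 ERY gates, late counts in 4 stood beside at most 1 early count. ERY-I replicate 6 had 54 late and 0 early counts, ERY-II replicate 3 had 75 and 1, ERY-III replicate 3 had 68 and 0, and ERY-V replicate 6 had 178 and 0. The other two, ERY-IV replicate 3 with 2 late and 0 early counts and ERY-VI replicate 3 with 1 and 1, held hardly any of either. ERY-V replicate 6 had Ngp at 34.4 CPM, S100a8 at 31.0 CPM and S100a9 at 25.9 CPM. ERY-VI replicate 1, the first in its gate, had 783 late and 3 early counts. By contrast ERY-I replicate 4 had 136 early and 32 late counts, and ERY-IV replicate 1 had 54 and 19.

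Members did not keep the same proportions in all libraries. S100a8 and S100a9 together exceeded the 4 late members in the second Xist-positive libraries of ERY-I (575 against 437 CPM), ERY-II (1115.5 against 847), ERY-III (632 against 508), ERY-IV (113 against 67.3) and ERY-V (1715.2 against 1510.2), and not in that of ERY-VI (390 against 420). In the Y-positive libraries of ERY-I and ERY-V the S100 sum was below the late sum in all 6. Ltf made up 19.4 to 19.9% of the 10 genes' counts in ERY-I replicates 1 to 3 and 9.93% in replicate 5. S100a8 made up 11.5 to 11.6% and 19.0%. Which difference between the 2 library sets goes with these proportions was not tested.

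**Figure D2:**
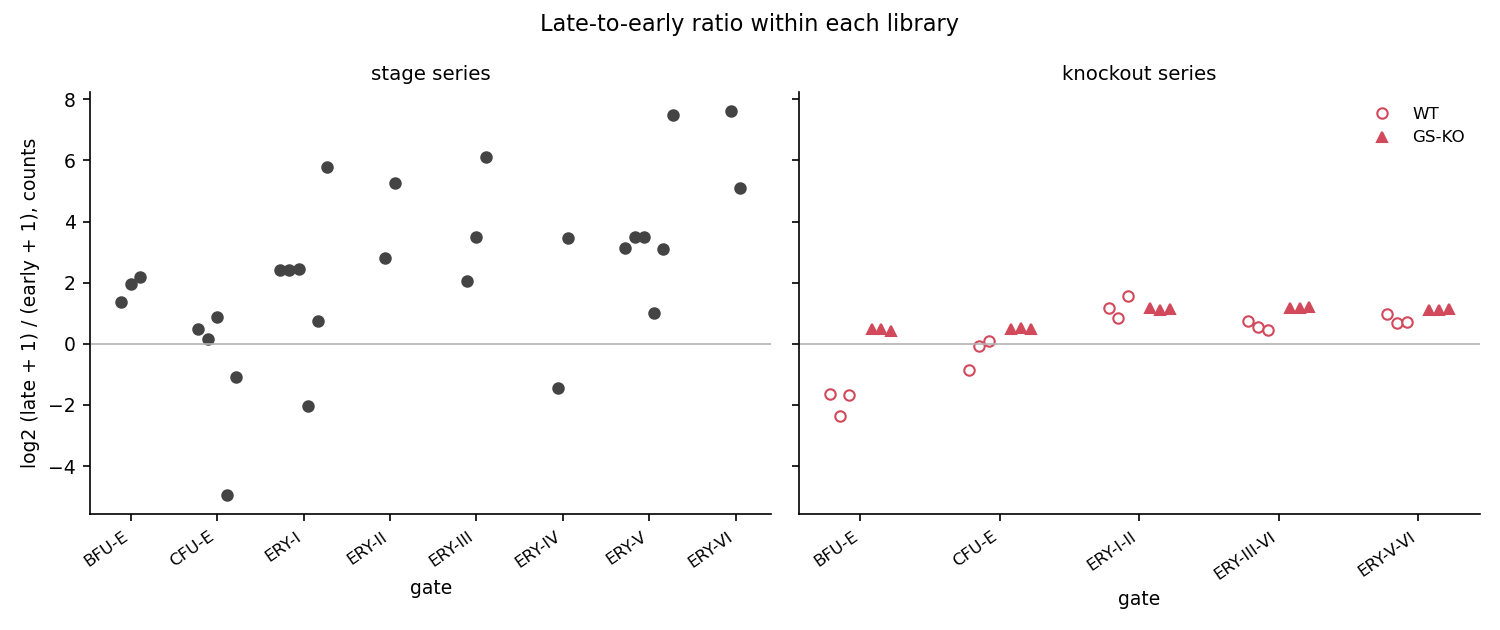
Log2 ratio of late to early counts, 1 added to each sum, in each library with at least 20 such counts, by gate in the stage series (left) and by gate and genotype in the knockout series (right). Stage libraries range from -4.95 to 7.61, whereas all knockout libraries lie between -2.35 and 1.55.

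Other genes of the neutrophil lineage were read from lists of 10 early granule and promyelocyte genes, 20 late granule genes and 20 genes of mature neutrophils (Ly6g was not analysed here). In ERY-I replicates 1 to 3 the mature neutrophil genes summed to 1434.0 to 1501.8 CPM and 18 to 20 of the 20 had a count. Csf3r, the receptor for granulocyte colony-stimulating factor, stood at 189 to 203 CPM and Retnlg, a secreted resistin-like protein, at 222 to 245 CPM. For each 100 CPM of the 4 late members these libraries had 18.7 to 19.9 CPM of mature neutrophil genes. The second Xist-positive libraries had 21.8 in ERY-I, 38.7 in ERY-IV, 9.13 in ERY-VI and 17.2 to 19.5 in the other three.

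Mature neutrophil genes were then read in the 4 libraries with 54 to 178 late and at most 1 early count. ERY-V replicate 6, with 60.0 CPM of late members, had counts for 3 of the 20, with Csf3r and Retnlg at 0. ERY-I replicate 6 and ERY-III replicate 3 had counts for 5 of the 20 each and ERY-II replicate 3 for 9, also with Csf3r and Retnlg at 0. ERY-IV replicate 3, with 2 late counts, had counts for 6, so these numbers were also reached where late members were nearly absent. ERY-VI replicate 1, with 783 late and 3 early counts, had counts for 5, among them Csf3r at 3.53 CPM and Retnlg at 1.47 CPM. ERY-VI replicate 2, with 25 early counts and 420 CPM of late members, had counts for 7, with Csf3r at 0.473 CPM and Retnlg at 0. ERY-VI replicate 2 held Ngp at 220 CPM, whereas ERY-V replicate 1 held Ngp at 733 CPM with Retnlg at 61.2 CPM and Csf3r at 32.7 CPM.

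Markers of other marrow cells moved with the granule genes in part. In ERY-I replicates 1 to 3 monocyte and macrophage markers summed to 626 to 631 CPM with 15 of 16 detected, and B cell markers to 693 to 716 CPM with 12 of 12 detected. In the second Xist-positive libraries of ERY-I, ERY-II and ERY-III the B cell sums were 69.1, 214 and 106 CPM. In ERY-II replicate 1 the B cell sum was 343 CPM with a late sum of 3.16 CPM, so these markers were not high only where granule genes were. Globin genes took 0.989 to 1.01% of counts in ERY-I replicates 1 to 3 and from 2.29% (replicate 4) upwards in replicates 4 to 7. The part of these cells and of maturity in the granule values was not tested.

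GS-KO was compared with WT within each of the 5 gates of the knockout series. All 10 members were higher in GS-KO in all 5 gates, with no overlap between the 3 GS-KO and 3 WT libraries of any gate. The share of all genes without such overlap was not taken, and replicates lay close to counting noise, so this is a description. In WT BFU-E the late sum was 7.95, 4.36 and 7.24 CPM and the early sum 24.9, 22.7 and 23.2 CPM. In GS-KO BFU-E the late sum was 3135.4, 3121.1 and 3078.9 CPM and the early sum 2251.9, 2232.1 and 2316.8 CPM. In CFU-E the late sum was 7.95, 10.4 and 11.6 CPM in WT and 1901.2, 1897.0 and 1901.3 CPM in GS-KO, and the early sum 14.4, 10.8 and 10.8 against 1366.7, 1317.7 and 1358.6 CPM. The 10 genes thus took 0.717 to 0.725% of all counts in GS-KO BFU-E and 0.00303 to 0.00386% in WT BFU-E.

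In ERY-I-II the late sum was 55.0, 50.1 and 62.1 CPM in WT and 3151.4, 3057.8 and 3116.9 CPM in GS-KO. In ERY-III-VI it was 123, 120 and 117 CPM in WT and 4912.6, 4926.7 and 4923.6 CPM in GS-KO. In ERY-V-VI it was 340, 304 and 320 CPM in WT and 6767.2, 6740.4 and 6771.7 CPM in GS-KO. The early sum over the same 3 gates was 21.1 to 28.2, 73.4 to 84.8 and 174 to 193 CPM in WT and 1404.7 to 1441.1, 2153.0 to 2202.8 and 3090.1 to 3162.1 CPM in GS-KO. By the sum over all 10 genes, WT gates stood in the order CFU-E (26.7 to 30.2 CPM), BFU-E (30.3 to 38.6), ERY-I-II (110 to 118), ERY-III-VI (258 to 262) and ERY-V-VI (621 to 664). The first 2 of these are separated by less than the range within either. GS-KO gates began with CFU-E (4402.9 to 4486.5), ERY-I-II (6299.2 to 6381.7) and BFU-E (7174.0 to 7252.0), in rising order. ERY-III-VI (10068 to 10145) and then ERY-V-VI (13554 to 13736) followed. Neighbours in this order did not overlap in CPM of library totals. TMM scaling factors were 1.61 in GS-KO BFU-E replicate 1 and 1.04 in GS-KO ERY-I-II replicate 1. The order of GS-KO BFU-E and ERY-I-II therefore depends on scaling.

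**Figure D3:**
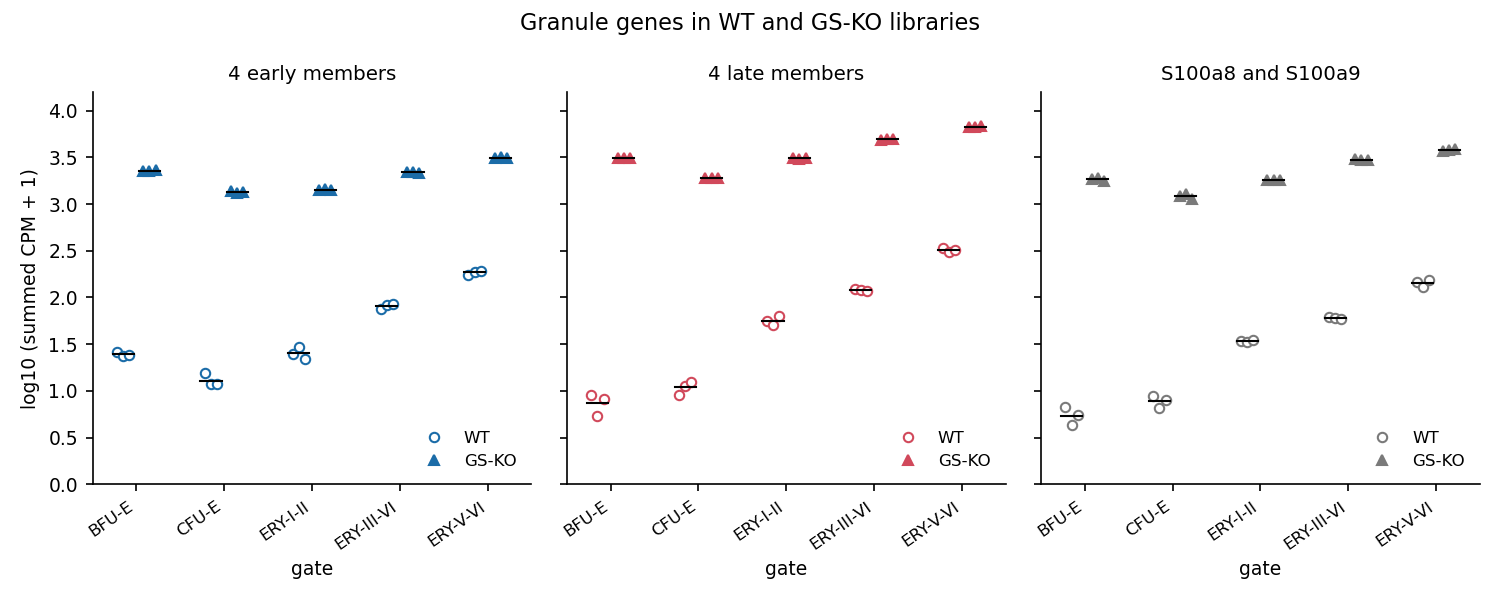
Summed CPM of the 4 early members, the 4 late members and S100a8 with S100a9 in each WT (open circles) and GS-KO (triangles) library of the 5 gates, on a log10 (CPM + 1) axis, with the mean of the 3 libraries as a line. In every gate and class the GS-KO libraries lie above the WT libraries, and the WT sums rise from CFU-E to ERY-V-VI.

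The difference was fitted gate by gate on the counts of all genes with edgeR's quasi-likelihood test and Benjamini-Hochberg adjustment, at an adjusted p under 0.05. In BFU-E all 10 members were called higher in GS-KO, where 15.4% of 11356 tested genes were called higher and 8.59% lower. In CFU-E all 10 were called higher, against 17.9% of 10859 genes higher and 11.5% lower. In the 3 later gates all 10 were again called higher, against 22.9% of 9954 genes, 31.4% of 9981 and 22.4% of 9403, with 17.5, 24.5 and 20.5% called lower. On the WT libraries alone, 5, 6, 8, 10 and 9 members would have passed the low-count filter in the 5 gates. A member that entered only through its GS-KO counts had to differ, so the count of members called is a description and not support.

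In BFU-E the log2 fold changes ran from 5.11 to 10.25 with a median over the 10 of 8.17, against -0.01 for all genes tested. Mpo, the member with the most counts in WT BFU-E, stood at 20.5, 18.1 and 17.6 CPM in WT and 1830.3, 1816.6 and 1876.1 CPM in GS-KO, a log2 fold change of 6.65 ± 0.04 (SE, n = 3 and 3). Ngp, which like Mpo passed the filter on its WT counts, was at 8.83 ± 0.06. Prtn3 had the lowest value at 5.11 ± 0.13, with 1.94 to 3.47 CPM in WT and 87.8 to 94.5 CPM in GS-KO. Lcn2 and Ltf entered only through their GS-KO counts, so their values of 10.25 ± 0.11 and 9.20 ± 0.07 are descriptions. Lcn2 stood at 0.636, 0.121 and 0.204 CPM in WT, 7 counts in all, and at 365, 373 and 357 CPM in GS-KO. Its value was 10.99 without WT replicate 1, and that of Ctsg went from 6.48 to 7.44 without WT replicate 2. The 4 late members in BFU-E lay at 7.78 to 10.25 and the 4 early members at 5.11 to 7.45. Camp, Elane and Ctsg also entered only through their GS-KO counts, so this split is a description.

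In CFU-E log2 fold changes ran from 6.21 for Prtn3 to 8.18 for Camp (median 7.27). Camp, Lcn2, Prtn3 and Ctsg, with 13, 26, 17 and 8 WT counts, entered there only through their GS-KO counts. Their values and this median are thus descriptions. Camp stood at 0.241, 0.703 and 0.720 CPM in WT and 162, 168 and 158 CPM in GS-KO, and Prtn3 was at 6.85 without WT replicate 1. In ERY-I-II the log2 fold changes lay in a narrow band from 5.64 for Lcn2 to 6.08 for Ltf (median 5.95), early and late members alike. In ERY-III-VI they ran from 4.39 for Ctsg to 5.48 for S100a9 (median 5.17), and all 4 early members (4.39 to 4.71) lay below all 4 late members (5.17 to 5.32). In ERY-V-VI they ran from 2.76 for Mpo to 3.73 for Camp (median 3.09), and Ctsg went from 3.11 to 3.71 without WT replicate 2. The medians over all genes in these 4 gates were 0.0039, -0.01, 0.05 and 0.15. Prtn3 and Ctsg in ERY-I-II, and Ctsg in ERY-V-VI, also entered only through their GS-KO counts.

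The size in ERY-V-VI depended on scaling. With library totals in place of TMM factors the member log2 fold changes there were 4.06 to 5.02, the median of all genes moved from 0.15 to 1.44, and the share of called genes that were higher in GS-KO moved from 52.3 to 95.2%. That share moved from 56.7 to 36.0% in ERY-I-II and from 56.2 to 74.7% in ERY-III-VI, and with all 30 libraries in 1 fit it was 45.0% in ERY-III-VI. All 10 members were higher under each of these settings, which is a description. With library totals, 1792 of 9954 tested genes were called higher in ERY-I-II, 3957 of 9981 in ERY-III-VI and 7219 of 9403 in ERY-V-VI. With all 30 libraries in 1 fit, 3145 of 12051 were called higher in ERY-III-VI. Globin genes took 19.6 to 19.8% of counts in WT ERY-V-VI and 7.69 to 7.82% in GS-KO. In raw CPM the late sum of GS-KO over WT was 478-fold in BFU-E, 190-fold in CFU-E, and 55.8-fold, 41.0-fold and 21.0-fold in the later gates.

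**Figure D4:**
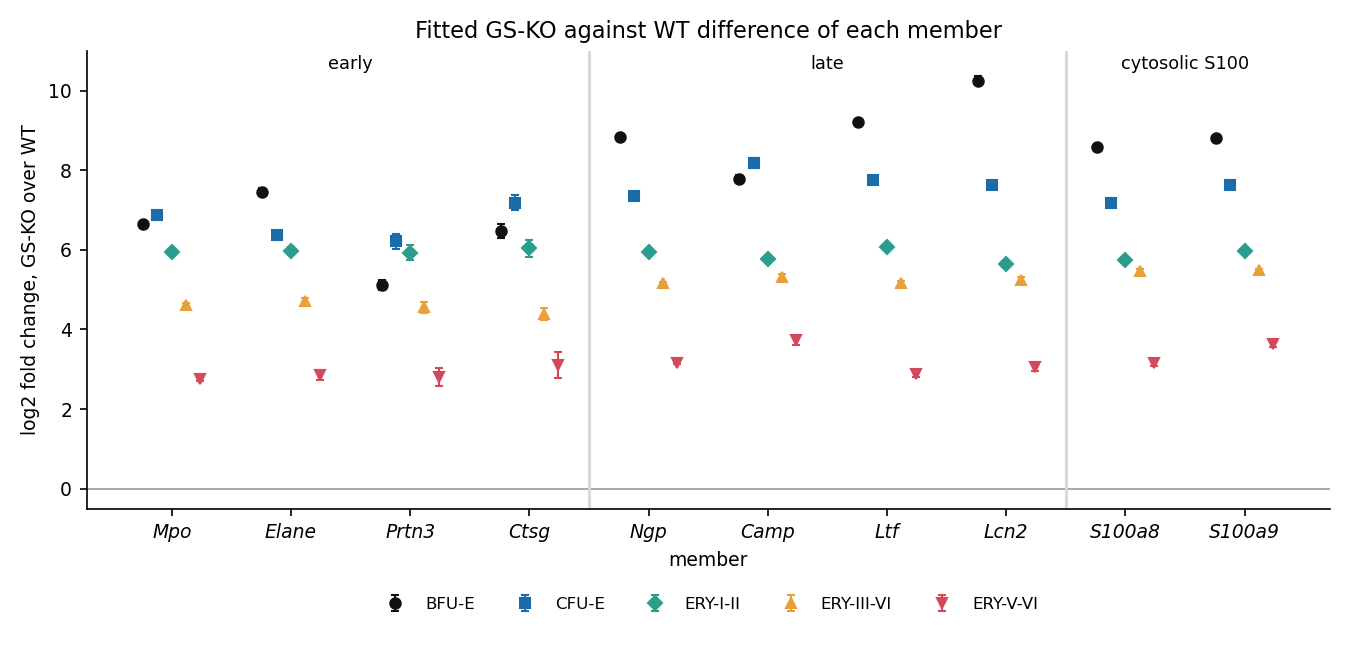
Fitted log2 fold change of GS-KO over WT for each member in the 5 gates, with its standard error as a bar (edgeR, 3 against 3 libraries in each gate). All points lie above 0, from 2.76 for Mpo in ERY-V-VI to 10.25 for Lcn2 in BFU-E, and ERY-V-VI is the lowest gate for each member.

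Whether the genotype difference itself differed between gates was tested as an interaction with 4 degrees of freedom over the 30 libraries. All 10 members were called (edgeR adjusted p from 1.28e-46 for Ngp to 2.32e-10 for Ctsg), where 61.2% of 12051 genes were called, so this share is high for genes in general. Since replicates lay close to counting noise, the 3 libraries of each genotype and gate were also summed to 1, an alternative chosen after the data were seen, with gate as a block. The members' log2 fold changes were then 4.73 for Prtn3 to 6.14 for S100a9, higher in GS-KO in 5 of 5 gates, with edgeR adjusted p from 0.0089 to 0.027, and 4.6% of 11945 genes were called higher. That fit takes gates as replicates.

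The balance of late to early members was also compared between the genotypes. The log2 ratio was -1.63, -2.35 and -1.67 in WT BFU-E and 0.477, 0.484 and 0.410 in GS-KO BFU-E. Early counts thus exceeded late counts in all 3 WT libraries and late exceeded early in all 3 GS-KO libraries. In CFU-E the ratio averaged -0.27 ± 0.51 in WT and 0.50 ± 0.03 in GS-KO (SD, n = 3 each), in ERY-III-VI 0.58 ± 0.14 and 1.17 ± 0.02, and in ERY-V-VI 0.79 ± 0.15 and 1.11 ± 0.02. Two-sided exact permutation tests gave p = 0.1 in these 4 gates, the smallest that 3 against 3 allows, and 0.125 after Benjamini-Hochberg adjustment over 5 gates. In ERY-I-II the WT libraries (0.83 to 1.55) spanned the GS-KO libraries (1.09 to 1.17), and the difference of -0.06 had an exact permutation p of 0.7.

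The mixture of the 10 genes was described by each member's share of their counts. Mpo made up 25.0 to 26.2% of the 10 genes' counts in GS-KO BFU-E, 23.9 to 25.0% in GS-KO CFU-E and 16.8 to 18.1% in the later GS-KO gates. Ngp made up 21.0 to 21.9% in both progenitor gates and 24.0 to 25.5% in the other three. In WT the share of Mpo was 50.4 to 59.6% in BFU-E, 26.4 to 37.8% in CFU-E, and 14.1 to 19.5, 22.6 to 25.3 and 20.9 to 23.9% in the later gates. Per kilobase of merged exon, S100a9 led in GS-KO BFU-E at 2240 CPM per kilobase, followed by Ngp at 1280, S100a8 at 966 and Mpo at 538. In WT BFU-E, Mpo led at 5.47 CPM per kilobase with S100a9 at 5.06. In ERY-V-VI the first 3 were S100a9, Ngp and S100a8 in both genotypes.

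The WT BFU-E of the knockout series and the BFU-E of the stage series carry the same gate name and differ in this balance. Early sums were 22.7 to 24.9 CPM in the first and 6.18 to 9.41 CPM in the second, and late sums 4.36 to 7.95 CPM and 24.3 to 28.5 CPM. The ranges did not overlap. Tables were deposited per series, and whether the gate or the mice differed was not tested.

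Other genes of the neutrophil lineage were higher in GS-KO in the same gates. Of the 20 other late granule genes 18 were tested and all 18 called higher in each of the 5 gates, with a median log2 fold change of 7.32, 6.75, 5.81, 5.37 and 3.31. Lyz2, lysozyme, was among them at 7.05 in BFU-E and 3.28 in ERY-V-VI, as was Cybb, the catalytic subunit of the phagocyte oxidase, at 8.15 and 3.71. Of the 10 other early genes 9 were called higher in BFU-E and 10 in each other gate, and Ctsc, the protease that activates the granule serine proteases, missed in BFU-E at 0.17 ± 0.13 (edgeR adjusted p = 0.364). Mature neutrophil genes were called higher for 11 of 13 tested, 10 of 11, 10 of 10, 11 of 12 and 10 of 13. Beside these counts, 15.4, 17.9, 22.9, 31.4 and 22.4% of all genes tested were called higher in the 5 gates. The filter admits genes of these lists through their GS-KO counts, as above.

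For each 100 CPM of late members, GS-KO libraries had 7.13 to 10.2 CPM of mature neutrophil genes, less than the 18.7 to 19.9 CPM of ERY-I replicates 1 to 3 in the stage series. WT libraries had 6.08 to 11.9 CPM in ERY-V-VI, spanning the 7.5 to 7.77 CPM of GS-KO there. They had 12.4 to 14.3 CPM in ERY-III-VI, 10.8 to 15.1 in ERY-I-II and 36.1 to 45.9 in CFU-E. In WT BFU-E the value was 418 to 761 CPM, on 36 to 71 late counts. Csf3r went from 0.329 ± 0.0305 CPM in WT BFU-E to 36.2 ± 2.68 CPM in GS-KO BFU-E (SD, n = 3 each), and from 1.64 ± 0.589 to 57.7 ± 5.51 CPM in ERY-V-VI. Of 14 regulators of granulocyte formation, 10, 13, 13, 12 and 11 were called higher, and 1 was called lower in BFU-E and 1 in ERY-V-VI. Over all genes 15.4, 17.9, 22.9, 31.4 and 22.4% were called higher, and 8.59% in BFU-E and 20.5% in ERY-V-VI lower. Cebpe, the factor needed for the late granule genes, was at 7.46 ± 0.375 in BFU-E and 2.71 ± 0.455 in ERY-V-VI on the log2 scale. Gfi1, a repressor that acts in granulocyte precursors, was at 6.74 ± 0.376 and 4.44 ± 0.682. Myb, which stem and progenitor cells of several lineages express, fell by 0.12 in BFU-E and was higher in the other 4 gates.

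Erythroid markers moved in both directions, by gate. Among the 12 markers on the list, 8, 6, 9, 4 and 1 were called higher in GS-KO from BFU-E to ERY-V-VI, and 4, 4, 2, 7 and 11 lower, with a median log2 fold change of 3.02, 2.01, 0.72, -0.40 and -1.80. Of all genes tested, 15.4, 17.9, 22.9, 31.4 and 22.4% were called higher and 8.59, 11.5, 17.5, 24.5 and 20.5% lower. The 4 of 12 higher in ERY-III-VI and the 2 of 12 lower in ERY-I-II were near these shares. In BFU-E the globin genes Hba-a1, Hbb-b1 and Hbb-b2 were higher by 6.16 ± 0.09, 5.82 ± 0.07 and 5.75 ± 0.13 on the log2 scale (SE) and Slc4a1, the anion exchanger of the red cell membrane, by 5.93 ± 0.09, while Epor, the erythropoietin receptor, fell by 0.88. The globin copies are near-identical, so how reads were split between them is uncertain. Globin genes there took 0.00105 to 0.00146% of counts in WT and 0.0774 to 0.0799% in GS-KO. The globin genes and Slc4a1 were thus higher in the progenitor gates along with the granule genes, and their part in the granule values was not tested.

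Stem and granulocyte-monocyte progenitor markers, a list of 10 that includes Mpo, were called higher for 8 of 10 tested, 9 of 9, 7 of 7, 7 of 7 and 7 of 8, and none was called lower. The shares of all genes called higher were 15.4, 17.9, 22.9, 31.4 and 22.4%. Markers low in WT could enter through their GS-KO counts. In BFU-E, Cd34, a surface protein of early progenitors, was higher by 3.08 ± 0.18 and Flt3, a cytokine receptor of early progenitors, by 6.19 ± 0.34, and Irf8, a factor of the monocyte lineage, by 4.01 ± 0.25. Sox4 and Meis1 were not called there, at -0.14 ± 0.06 and 0.05 ± 0.10.

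Markers of other cells also differed between the genotypes, and their counts are to be read against the 15.4, 17.9, 22.9, 31.4 and 22.4% of all genes called higher in the 5 gates. Many of these markers are low in WT and could enter through their GS-KO counts. B cell markers were called higher in GS-KO for 12 of 12 tested, 8 of 8, 7 of 7, 11 of 11 and 7 of 11, and their sum ran from 1.80 to 8.41 CPM in WT and from 29.2 to 94.2 CPM in GS-KO. Monocyte and macrophage markers were called higher for 10 of 12, 7 of 8, 10 of 11, 11 of 13 and 4 of 13 in the same order, with sums of 18.1 to 61.0 CPM in WT and 67.4 to 240 CPM in GS-KO. Mast, basophil and eosinophil markers were called higher for 5 of 7 (and lower for 1), 7 of 7, 3 of 3, 5 of 5 and 4 of 5, with sums of 1.88 to 369 CPM in WT and 136 to 448 CPM in GS-KO. T and NK cell markers were called higher for 2 of 3, 1 of 1, 1 of 1, 1 of 2 and 1 of 1. Megakaryocyte markers were called higher for 3 of 7, 2 of 5, 1 of 4, 0 of 4 and 0 of 3, and lower for 0, 0, 0, 1 and 2. The megakaryocyte share in ERY-I-II (1 of 4) and the monocyte and macrophage share in ERY-V-VI (4 of 13) were near those of all genes.

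In WT, the markers without a count in any of the 3 libraries included Marco in BFU-E and CFU-E, Ms4a1 in CFU-E, ERY-I-II and ERY-V-VI, and Cd3e in all 5 gates. All 12 B cell markers had a count in each GS-KO group. On a scale of folds in summed CPM, GS-KO over WT in BFU-E was 478-fold for late members, 96.0-fold for early members, 15.3-fold for B cell markers, 2.57-fold for monocyte and macrophage markers and 1.20-fold for megakaryocyte markers. In ERY-V-VI the same folds were 21.0, 16.9, 16.1, 4.70 and 1.33. The part of other cells in the sorted gates in these differences was not tested.

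Genes with the most similar pattern were taken as those with the highest Pearson r of log2 (CPM + 1) over the 38 stage libraries, among 8434 genes with a mean of at least 5 CPM. For the late sum these were Chil3 (r = 0.98, and 0.99 over the 30 knockout libraries), C3 (0.96 and 0.99), Cybb (0.95 and 0.99), Myo1f (0.94 and 0.95) and Anxa1 (0.94 and 0.93). For the early sum they were F13a1 (0.95 and 0.93), Ahnak (0.94 and 0.93), Anxa1 (0.94 and 0.97), Sorl1 (0.94 and 0.98) and Ckap4 (0.94 and 0.97). Chil3 encodes a chitinase-like secreted protein of myeloid cells and C3 the central complement component. Libraries of 1 gate share their sort and library set, so these r values describe the libraries and carry no test.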

How the data were processed

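The authors deposited raw read counts per gene symbol for 38 stage and 30 knockout libraries. STAR 2.5.2b, HTSeq and mm10 are named in the submitters' processing notes, and the labels name the SMARTer Stranded kit with pico input. The sources used here give neither annotation nor strand setting. All columns were matched to samples by name.

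The members and lists were chosen with earlier results of these data known. Values in CPM are relative to library totals. GS-KO was compared with WT within each gate in edgeR 4.0.16 (R 4.3.3), with filterByExpr (minimum count 10, minimum total 15), TMM scaling, the quasi-likelihood F test and Benjamini-Hochberg adjustment over all genes tested. SE was derived from the log2 fold change and F. The late-to-early ratio was tested by exact permutation over libraries. Named genes are the 10 members, of other lists up to 4 called genes with the smallest adjusted p (Myb, Ctsc, Epor, Sox4, Meis1 and the markers given as at 0 were named after their values were seen), and the 5 genes of most similar pattern for each sum.

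The gate fits were tested on simulated data: at the spread of CFU-E (10685 genes) 95.9% of log2 changes of 1 and 100% of those of 2 were recovered, at that of ERY-V-VI (8734 genes) 47.8% and 87.1%, with 5.85% and 2.36% false calls. Only a small set of genes was changed there, equally often up and down. The rates need not hold where many genes differ, as in these gates. Alternatives were DESeq2 1.42.0, RLE factors, library totals, globin genes left out, no or a stricter low-count filter (mean of 5 CPM), all 30 libraries in 1 fit, the replicate number as a block, leaving out each library, and, chosen after the data were seen, summed triplicates. The minimum of 20 counts for a ratio, the split into library sets, the grouping by position and the motif search were also chosen then. Intervals for single counts were not given, and a limit of 3 counts for a count of 0 covers counting error only, since no molecular tags are described.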

Additional observations from a re-analysis of the deposited data

Results flagged for a closer look

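In gates of 4 to 7 libraries, 38 of 91 combinations of gate and measure had a library far from the others by Dixon's criterion at the 95% level. Chance gives about 1 in 20 for a single measure, but the measures are members and their own sums, and the members were chosen on these levels, so the number is a description and no test. In 35 of the 38 this was replicate 2 of ERY-II, ERY-III or ERY-IV, as the highest library. In ERY-II replicate 2 the late members stood at Ngp 376, Camp 73.1, Ltf 253 and Lcn2 145 CPM and summed to 847 CPM, and S100a8 at 464 and S100a9 at 651 CPM summed to 1115.5 CPM. Its early members stood at Mpo 94.7, Elane 9.18, Prtn3 7.71 and Ctsg 7.71 CPM and summed to 119 CPM. In ERY-III replicate 2 the late members stood at Ngp 240, Camp 37.2, Ltf 148 and Lcn2 82.9 CPM and summed to 508 CPM, and S100a8 at 269 and S100a9 at 363 CPM summed to 632 CPM. Its early members stood at Mpo 36.3, Elane 4.83, Prtn3 2.3 and Ctsg 1.84 CPM and summed to 45.3 CPM. In ERY-IV replicate 2 the late members stood at Ngp 40.7, Camp 8.78, Ltf 11.1 and Lcn2 6.73 CPM and summed to 67.3 CPM, and S100a8 at 46.5 and S100a9 at 66.4 CPM summed to 113 CPM. Of its early members only Elane, at 1.17 CPM, met the criterion. Mpo, at 3.51 CPM, lay below the 8.57 CPM of ERY-IV replicate 1. The early sum, at 5.85 CPM, likewise lay below the 9.08 CPM there. In ERY-VI, Mpo was 0.883 CPM in replicate 1 and 0 in the other three, a value of 3 counts, and replicate 2 had Ctsg at 11.4 CPM and an early sum of 11.8 CPM. These libraries were kept in all values given above.

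The GS-KO against WT difference varied between the 5 gates for all 10 members by the interaction test in edgeR, with adjusted p of 1.25e-44 for Mpo, 2.54e-26 for Elane, 5.88e-11 for Prtn3, 2.32e-10 for Ctsg, 1.28e-46 for Ngp, 2.47e-21 for Camp, 2.33e-43 for Ltf, 1.07e-29 for Lcn2, 1.1e-35 for S100a8 and 2.42e-39 for S100a9. By the same interaction test 61.2% of 12051 genes were called, so such calls are common among genes in general. Replicates lay close to counting noise, and these p-values measure only that spread. The difference was positive in 5 of 5 gates for each member, at log2 fold changes of 2.76 to 10.25.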

How the results depend on the processing

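All 10 members were called higher in GS-KO in each gate under all alternatives run, 700 of 700 settings of single members. The alternatives use the same libraries, and members that entered only through their GS-KO counts had to differ. This number is therefore a description and not support. When scaling or the libraries included were changed, a group's mean early sum moved by more than its SD in 17 settings. It stayed within the SD in 93. For the late sum these numbers were 19 and 91. The count of all genes called in ERY-V-VI rose from 4034 to 6945 with all 30 libraries in 1 fit and to 7580 with library totals; the cause was not tested. The late-to-early difference in ERY-I-II turned from -0.06 to 0.29 when the mean of the members' log2 (CPM + 1) replaced the log of the sums, and ranged from -0.24 to 0.13 when each library was left out in turn, the positive value being without WT replicate 3; the cause was not tested. In the other 4 gates that difference stayed positive under every alternative, and leaving out libraries gave 2.11 to 2.46 in BFU-E, 0.47 to 0.95 in CFU-E, 0.53 to 0.67 in ERY-III-VI and 0.27 to 0.41 in ERY-V-VI.

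With the replicate number as a block, 2535, 3107, 3885, 5466 and 3622 genes were called in the 5 gates, and all 10 members stayed called. Same-numbered WT and GS-KO libraries correlated at -0.05 to 0.02 in their deviations from the group means, and not every library was closest to its own number. Replicates lay close to counting noise, so this cannot tell whether same-numbered samples share more than a number. The paired late-to-early difference had an exact p of 0.25 in 4 gates, the smallest that 3 pairs allow, and 0.75 in ERY-I-II. Depth limits the WT progenitor gates, where Lcn2 in BFU-E rested on 7 counts and Ctsg in CFU-E on 8.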
